A study of Mus musculus with 12 samples.

Results

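The VEGF ligands Vegfa, Vegfb, Vegfc and Pgf and the receptors Flt1, Kdr, Flt4, Nrp1 and Nrp2 were described across the mouse uterus of WT and EAAE animals, under saline and after estradiol (E2). All probes whose gene name, or the current symbol of whose accession, is one of these 9 genes were taken, which gave 20 probes of the 41174 on the array. Of these, 16 probes, at least 1 for each gene, were well above background on all 12 arrays, and none of them was saturated. The other 4 (2 probes of Flt1, 1 of Kdr and 1 of Nrp2, the Flt1 and Kdr ones designed on cDNA clones) were well above background on no array, and no fold is given for them.

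Each array held the RNA of 1 uterus. The 4 groups of 3 mice were EAAE mice given E2, EAAE mice given saline, WT mice given E2 and WT mice given saline. EAAE denotes an estrogen receptor alpha (Esr1) that, by the title of the study, lacks DNA binding, and all other features were shared: adult females of 10 weeks or more, a mixed C57bl6/Jx129 strain, ovaries removed 10 to 14 days earlier, and a 100 ul injection 2 h before the tissue was frozen. The labels used here give neither the E2 dose nor the zygosity of the EAAE allele, and nothing in them limits the alteration to 1 cell type. The comparisons ask how the VEGF system of the uterus responds to E2 when the receptor can, and when it cannot, bind DNA directly. On a whole uterus, fewer cells of a type and less RNA per cell cannot be told apart.

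VEGF ligands are secreted dimers that act mainly on endothelial cells. Vegfa binds the receptor tyrosine kinases Flt1 (VEGF receptor 1) and Kdr (VEGF receptor 2), Pgf and Vegfb bind Flt1, and Vegfc binds Flt4 (VEGF receptor 3, enriched on lymphatic endothelium) and, once processed, Kdr. The neuropilins Nrp1 and Nrp2 are coreceptors for VEGF ligands and for class 3 semaphorins. In the rodent uterus, estrogen is known to raise Vegfa within hours, along with vascular permeability and tissue fluid.

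The start-site sequences of the 4 ligands and of Nrp1 are shown because E2 moved their transcripts in different ways: Vegfa and Pgf rose in WT uteri, Vegfb and Vegfc fell there, and Nrp1 rose in both genotypes. In EAAE uteri the call of the brightest Nrp1 probe was lost in 18 of 24 alternatives. Each window is RefSeq sequence (GRCm38.p6) from 250 bases before to 50 bases after an annotated start, read along the gene, and all 9 genes matched, with 11 windows in all. Capitals mark matches, on either strand, to the GC box GGGCGG, which Sp family factors bind and through which estrogen receptor is known to act without binding DNA itself, and to AGGTCA, the 6-base core of the estrogen response element.
Vegfa, chr17:46032328-46032627, minus strand: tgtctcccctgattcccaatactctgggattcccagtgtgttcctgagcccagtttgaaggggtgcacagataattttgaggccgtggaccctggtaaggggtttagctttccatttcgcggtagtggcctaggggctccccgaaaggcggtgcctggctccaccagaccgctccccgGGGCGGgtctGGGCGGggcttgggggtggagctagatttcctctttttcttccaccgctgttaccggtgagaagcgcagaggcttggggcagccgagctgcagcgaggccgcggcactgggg
Pgf, chr12:85177264-85177563, minus strand: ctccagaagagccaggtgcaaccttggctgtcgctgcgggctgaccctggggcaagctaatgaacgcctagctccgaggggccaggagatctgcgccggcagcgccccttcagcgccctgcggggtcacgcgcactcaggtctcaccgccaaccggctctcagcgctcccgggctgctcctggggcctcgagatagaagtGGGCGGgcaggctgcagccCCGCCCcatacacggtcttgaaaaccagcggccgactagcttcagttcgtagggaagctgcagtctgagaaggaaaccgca
Nrp1, chr8:128358823-128359122, plus strand: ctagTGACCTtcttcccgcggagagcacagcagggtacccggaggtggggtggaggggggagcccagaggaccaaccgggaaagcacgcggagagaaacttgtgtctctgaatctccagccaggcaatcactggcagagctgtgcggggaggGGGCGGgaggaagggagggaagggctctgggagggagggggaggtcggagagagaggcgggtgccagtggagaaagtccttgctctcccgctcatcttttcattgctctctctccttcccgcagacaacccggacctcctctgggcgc
Vegfb, chr19:6987602-6987901, minus strand: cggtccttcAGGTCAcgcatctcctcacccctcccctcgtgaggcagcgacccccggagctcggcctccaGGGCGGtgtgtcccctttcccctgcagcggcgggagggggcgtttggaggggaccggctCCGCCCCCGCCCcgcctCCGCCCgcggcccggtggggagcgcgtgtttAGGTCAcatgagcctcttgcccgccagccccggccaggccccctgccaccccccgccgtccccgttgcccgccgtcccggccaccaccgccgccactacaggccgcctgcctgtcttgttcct
Vegfc, chr8:54077282-54077581, plus strand: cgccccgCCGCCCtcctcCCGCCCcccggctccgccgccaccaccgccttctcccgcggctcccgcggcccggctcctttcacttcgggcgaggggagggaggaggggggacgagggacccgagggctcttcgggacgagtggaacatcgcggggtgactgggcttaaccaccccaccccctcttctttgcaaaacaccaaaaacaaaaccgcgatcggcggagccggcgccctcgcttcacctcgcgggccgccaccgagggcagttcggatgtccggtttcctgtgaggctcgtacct

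GC boxes were present in 10 of the 11 windows, against 35.7% of 32851 RefSeq windows of the same 300 bases. All 9 genes had at least 1 window with a GC box. G and C made up 59.3 to 75.3% of the 11 windows, and the share over all windows was not matched for this. The Flt1, Kdr and Flt4 windows held 3, 2 and 3 boxes, against 2 in each of the printed Vegfa and Pgf windows. Adjacent GC boxes run together in the capitals, as in the Vegfb window. The full element, GGTCA and TGACC with 3 bases between them, was in 0 of the 11 windows and in 0.07% of all windows. The core AGGTCA was found in the windows of Vegfb (2 matches) and Nrp1 (1 match), against 16.3% of all windows. The AP-1 site TGANTCA was in 0 of the 11 windows, against 7.81% of all. The hypoxia response core ACGTG was in 1 window, that of the second Vegfa start, against 19.6% of all. These matches describe the letters of the windows, and binding was not measured.

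Probe sequences are shown for 2 probes behind the Nrp1 results, with positions of the array design (mm7). The first is the brightest probe of its gene.
Nrp1 A_51_P469285, chr8:127111352-127111411, plus strand: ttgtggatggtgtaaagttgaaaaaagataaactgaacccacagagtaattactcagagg
Nrp1 A_52_P371237, chr8:127076975-127077034, plus strand: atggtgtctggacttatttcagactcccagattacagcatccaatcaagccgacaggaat

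Levels are log2 intensities relative to the 75th percentile of their array, so a value of 0 means as bright as that percentile, and levels of different probes are not set against each other. Each gene is first described by its probe with the highest mean over the 12 arrays. Differences were tested with limma over 29017 probes, and a gene or probe is called higher or lower where the Benjamini-Hochberg adjusted p was under 0.05. Median intensity per array was 162.73 to 249.41, and 63.98 to 74.03% of spots were well above background. Arrays of the same group correlated at r = 0.982 to 0.993 over the tested probes and arrays of different groups at 0.915 to 0.987. Esr1, the altered gene, was measured at 2.96 to 3.35 across the 6 EAAE arrays, against 2.56 to 2.94 across the 6 WT arrays. Its level was higher in EAAE uteri under saline by 0.41 (adjusted p = 0.0107), and after E2 by 0.42 (adjusted p = 0.00344). Its other probe, A_51_P474658, ran the opposite way, -0.28 under saline (adjusted p = 0.163) and -0.48 after E2 (adjusted p = 0.0129). The Esr1 probes were thus called in opposite directions after E2, and the transcript level does not check the genotype labels.

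E2 changed 6 of the 9 genes in WT uteri: Vegfa, Pgf, Nrp1 and Nrp2 rose and Vegfb and Vegfc fell, while Flt1, Kdr and Flt4 did not pass the test. Across the series 49% of genes (19.5% higher, 29.6% lower) and 48.6% of probes were called in this comparison, so 6 of 9 genes, or 12 of 16 probes, is not far from the background. Array median scaling gave a split of 57.4% higher among all called probes, against 43.4% with the 75th percentile, and a median difference of all probes of 0.03, against -0.11. By size, of 19301 genes ordered from the highest E2 minus saline difference, Pgf was number 14 and Vegfa number 112. The median absolute difference was 0.77 over the 9 genes and 0.40 over all genes.

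Vegfa, the main angiogenic and permeability factor of the family, stood at 4.52, 4.71 and 4.53 in WT E2 uteri, against 1.52, 1.80 and 1.46 in WT saline uteri. The 3 treated arrays lay far above the 3 saline arrays with no overlap. The difference was 2.99 (SE 0.13, 95% confidence interval 2.71 to 3.28), which is 7.95-fold (adjusted p = 1.09e-07). In EAAE uteri, Vegfa stood at 1.12, 1.33 and 0.95 after E2, against 1.07, 1.28 and 1.32 under saline. The EAAE groups overlapped and differed by -0.09 (SE 0.13, interval -0.37 to 0.20, adjusted p = 0.774).

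Both other Vegfa probes also rose in WT uteri, and neither was called in EAAE uteri. A_51_P482552, printed on 10 spots, averaged 2.97 ± 0.10 after E2 and 0.55 ± 0.25 under saline in WT uteri (SD, n = 3 each), a difference of 2.41 (adjusted p = 2.53e-07). In EAAE uteri that probe averaged -0.13 ± 0.10 after E2 and -0.14 ± 0.04 under saline. The probe A_52_P249424 rose by 2.99 in WT uteri (adjusted p = 2.27e-07). In EAAE uteri it stood at -2.54, -2.70 and -2.76 after E2, against -2.49, -2.04 and -2.32 under saline, and those groups did not overlap. The difference of -0.39 (interval -0.71 to -0.06) did not pass the test after adjustment (adjusted p = 0.225).

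Pgf, placental growth factor, a ligand of Flt1 only among the receptor kinases, had the largest difference of the 9 genes. It stood at 2.81, 3.15 and 3.02 in WT E2 uteri, against -2.32, -2.48 and -2.16 in WT saline uteri. The gap of 5.31 (SE 0.24, interval 4.78 to 5.85) corresponds to 39.7-fold (adjusted p = 1.5e-07) and is many times the spread within either group. In EAAE uteri the values were -2.01, -1.47 and -0.81 after E2, against -1.82, -1.76 and -1.92 under saline. Here 2 of the 3 E2 arrays were above all saline arrays and 1 was below them, and the difference of 0.40 did not pass the test (SE 0.24, interval -0.14 to 0.93, adjusted p = 0.441). The single Pgf probe spans 2003 bases of the genome, so it reads across a splice junction.

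The 2 ligands that fell in WT uteri did so to a lesser degree. Vegfc, the lymphatic growth factor, stood at 0.43, 0.45 and 0.50 in WT E2 uteri, against 1.48, 1.40 and 1.73 in WT saline uteri. The groups did not overlap, and E2 lowered the signal 2.11-fold (log2 difference -1.08, SE 0.13, adjusted p = 7.61e-05). In EAAE uteri Vegfc was 1.85, 1.62 and 1.33 after E2, against 1.45, 1.55 and 1.52 under saline, a difference of 0.10 (adjusted p = 0.756).

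Vegfb, a Flt1 ligand tied in other tissues to fatty acid handling, stood at 3.00, 3.06 and 3.15 in WT E2 uteri, against 3.54, 3.72 and 3.86 in WT saline uteri. The groups did not overlap, and the difference was -0.64 (SE 0.13, adjusted p = 0.00216), 1.55-fold lower after E2. The second Vegfb probe fell by 0.46 (adjusted p = 0.01), a call that array median scaling ended (-0.32, adjusted p = 0.0584). In EAAE uteri the brighter Vegfb probe was 3.68, 3.80 and 3.90 after E2, against 3.51, 3.81 and 3.34 under saline, with overlap (0.24, adjusted p = 0.387).

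Markers of other cells moved alongside the falls of Vegfb and Vegfc. Of 6 adipocyte markers, 6 were lower after E2 in WT uteri (median -3.35), and their summed linear level was 1.30 to 12.7 in WT E2 uteri, against 15.3 to 114 in WT saline uteri, in units of the 75th percentile. The adipocyte count was 2 without WT saline 1, WT E2 1 or WT E2 3, and 3 with slide as a block. Of 6 uterine stroma markers, 6 were also lower (median -0.93), with a summed level of 236 to 279, against 349 to 363. The median over all genes was -0.15, and 19.5% of genes were higher and 29.6% lower. The part of either cell type in the ligand differences was not tested.

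**Figure D1:**
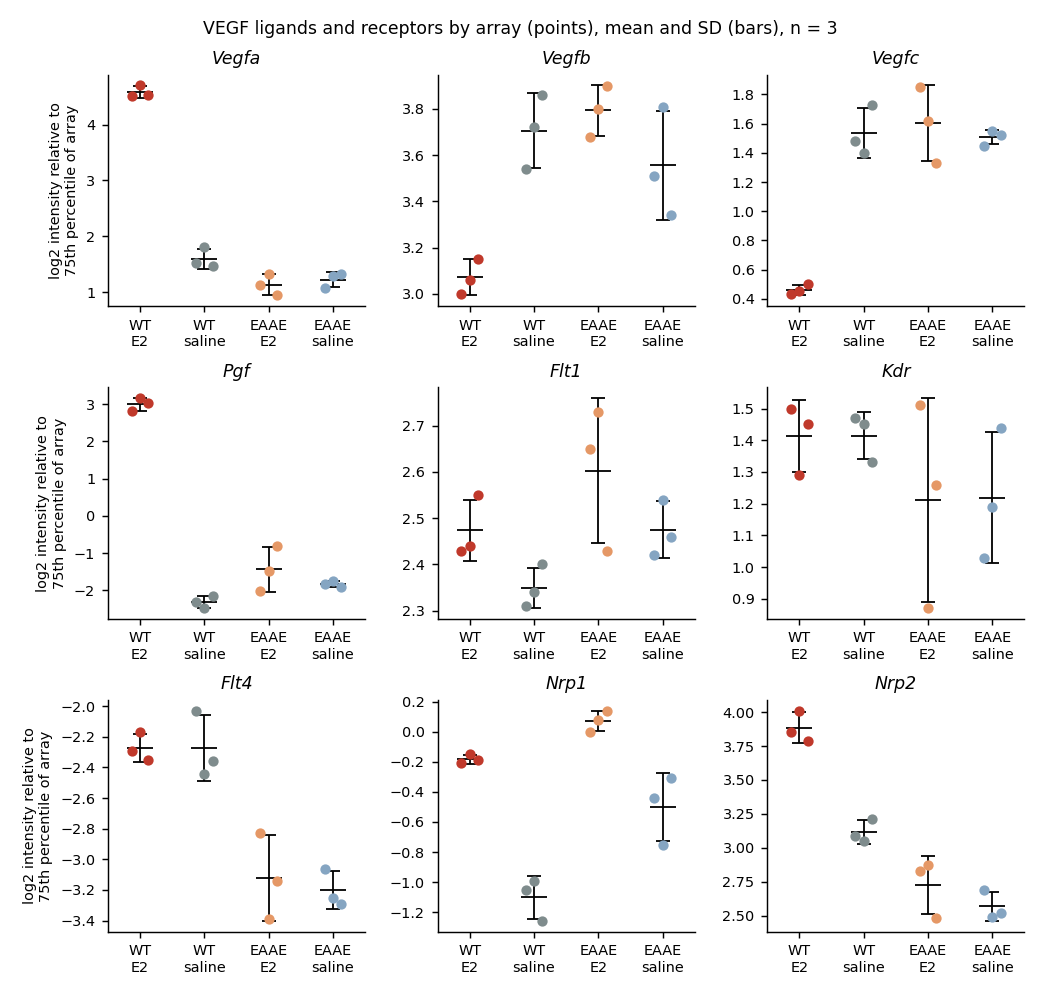
Each panel shows the brightest probe of 1 gene: log2 intensity relative to the 75th percentile of the array (vertical) for WT E2, WT saline, EAAE E2 and EAAE saline uteri (left to right), with a point per array and bars for mean and SD (n = 3 mice). WT E2 uteri stand apart from all other groups for Vegfa, Pgf, Vegfb, Vegfc and Nrp2, Flt4 separates by genotype, and Nrp1 is above saline in the E2 groups of both genotypes; vertical scales differ between panels.

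Among the receptor kinases, none had its brightest probe called after E2 in either genotype, and the intervals bound how large a change could have gone unseen. Kdr, the main signalling receptor of Vegfa, stood at 1.5, 1.29 and 1.45 in WT E2 uteri, against 1.47, 1.45 and 1.33 in WT saline uteri. The difference was -0.00 (SE 0.16, interval -0.35 to 0.35, adjusted p = 0.997). In EAAE uteri Kdr was 1.51, 0.87 and 1.26 after E2, against 1.03, 1.19 and 1.44 under saline. These groups overlapped too (-0.01, interval -0.36 to 0.34, adjusted p = 0.988).

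Flt4 was -2.29, -2.17 and -2.35 in WT E2 uteri, against -2.03, -2.44 and -2.36 in WT saline uteri, a difference of 0.00 (interval -0.33 to 0.34, adjusted p = 0.99). In EAAE uteri Flt4 differed by 0.08 between E2 and saline (interval -0.26 to 0.41, adjusted p = 0.838). Neither difference of this receptor, the one enriched on lymphatic endothelium, was larger than the spread between arrays.

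Flt1, which binds Vegfa, Vegfb and Pgf and also exists as a soluble decoy form, stood at 2.43, 2.44 and 2.55 in WT E2 uteri, against 2.31, 2.34 and 2.40 in WT saline uteri. The arrays did not overlap, yet the difference of 0.13 did not pass the test (interval -0.08 to 0.33, adjusted p = 0.282). A second Flt1 probe 73 bases away gave -0.04 (adjusted p = 0.817). Another, A_52_P307922, designed on a cDNA clone and lying 76.0 kb upstream along the gene, disagreed: it stood at -0.20, 0.09 and -0.11 in WT E2 uteri, against -0.63, -0.75 and -0.74 in WT saline uteri. That probe rose by 0.63 (SE 0.17, adjusted p = 0.00989) in WT uteri and not detectably in EAAE uteri (-0.08, adjusted p = 0.845). Which Flt1 transcripts A_52_P307922 reads is not given by the files, and with slide and position on the slide in the fit its WT difference was 0.31 (adjusted p = 0.244).

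Both neuropilins rose with E2 in WT uteri. The only tested Nrp2 probe, A_52_P93910, was designed on a cDNA clone. The other Nrp2 probe, 2.6 kb away, was well above background on no array. Nrp2 stood at 3.85, 4.01 and 3.79 in WT E2 uteri, against 3.09, 3.05 and 3.21 in WT saline uteri, with no overlap and a 1.70-fold rise (0.77, SE 0.12, adjusted p = 0.00037). In EAAE uteri Nrp2 was 2.83, 2.87 and 2.48 after E2, against 2.69, 2.49 and 2.52 under saline, and the groups overlapped (0.16, adjusted p = 0.527).

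Nrp1 stood at -0.21, -0.15 and -0.19 in WT E2 uteri, against -1.05, -0.99 and -1.26 in WT saline uteri. This 1.89-fold rise (0.92, SE 0.12, adjusted p = 0.000109) was read also by the probe 34.4 kb upstream (0.99, adjusted p = 0.000216). Another Nrp1 probe, A_52_P174942, designed on a cDNA clone and lying 142.6 kb upstream of the first, rose by 2.16 (SE 0.20, 4.47-fold, adjusted p = 1.13e-05). The difference read by the clone probe was thus larger than that read by the other probes of Nrp1, and whether it reads a separate transcript is not given by the files.

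In EAAE uteri Nrp1 was the only 1 of the 9 genes called after E2, where 1.44% of genes (0.679% higher, 0.762% lower) and 1.44% of probes were called across the series. Of those called probes 41.3% were higher, against 55.5% with array median scaling. The brightest Nrp1 probe stood at 0.00, 0.08 and 0.14 in EAAE E2 uteri, against -0.44, -0.75 and -0.31 in EAAE saline uteri. The difference was 0.57 (SE 0.12, interval 0.31 to 0.83, adjusted p = 0.0455). The clone probe stood at -0.63, -0.32 and -1.15, against -2.31, -2.48 and -2.07, a difference of 1.59 (SE 0.20, 3.01-fold, adjusted p = 0.00674). The probe A_52_P371237 stood at -1.33, -1.43 and -1.68, against -2.15, -2.37 and -2.14, a difference of 0.75 (SE 0.14, adjusted p = 0.0357). The E2 and saline arrays did not overlap at these Nrp1 probes, nor at the uncalled Vegfa probe A_52_P249424. The share of all probes without overlap was not counted.

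The Nrp1 call in EAAE uteri depended on the fit. On every slide the EAAE E2 array occupied position 4, and with position in the fit the brightest probe differed by 0.63 (adjusted p = 0.242) and the clone probe by 1.43 (adjusted p = 0.125). The differences kept their size there and the errors grew. Leaving out any 1 of the 12 arrays ended the call of the brightest Nrp1 probe (0.45 to 0.67, adjusted p 0.0507 to 0.108) and did not end that of the clone probe (1.40 to 1.82, adjusted p 0.00146 to 0.0336). The A_52_P371237 call ended without any 1 of 8 arrays (adjusted p 0.0559 to 0.0961): WT saline 1 and 2, WT E2 1, EAAE saline 1, 2 and 3, and EAAE E2 1 and 2. Within slide 1, Nrp1's brightest probe was 0.75 higher in the EAAE E2 uterus than in the EAAE saline uterus, and within slide 2 it was 0.45 higher than the mean of 2 EAAE saline uteri.

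**Figure D2:**
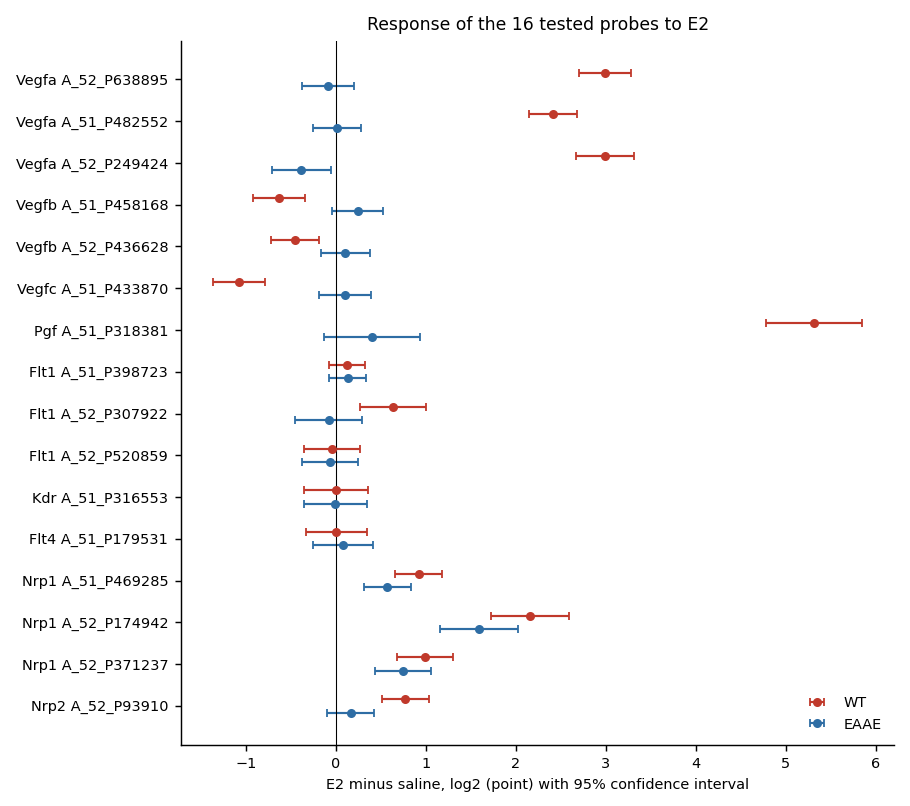
Points give the E2 minus saline difference (log2) of each of the 16 tested probes in WT (red) and EAAE (blue) uteri, with 95% confidence intervals from the limma fit over 12 arrays. Vegfa, Pgf and Nrp2 intervals lie above 0 in WT uteri, Vegfb and Vegfc intervals lie below 0 in WT uteri, and the 3 Nrp1 probes lie above 0 in both genotypes.

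The difference between the E2 responses, EAAE minus WT, was tested directly. It was called for 5 of the 9 genes, against 36.8% of all genes (21.9% higher, 14.9% lower) and 36.4% of all probes. Of the called probes 53.4% were positive, against 43.3% with array median scaling. Pgf (-4.92, SE 0.34, adjusted p = 6.1e-06), Vegfa (-3.08, SE 0.18, adjusted p = 2.31e-06) and Nrp2 (-0.61, SE 0.17, adjusted p = 0.0163) responded less in EAAE uteri. For Vegfc (1.17, SE 0.18, adjusted p = 0.000818) and Vegfb (0.87, SE 0.18, adjusted p = 0.00411) the sign was positive, since the fall seen in WT uteri was not seen in EAAE uteri. Nrp2 lost its call with slide as a block (-0.54, adjusted p = 0.069).

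For Nrp1 the difference of responses did not pass the test at any of its 3 probes: -0.35 (interval -0.71 to 0.02, adjusted p = 0.125), -0.57 for the clone probe (interval -1.18 to 0.05, adjusted p = 0.132) and -0.25 for A_52_P371237 (interval -0.69 to 0.19, adjusted p = 0.356). The intervals reach well below 0, so a smaller Nrp1 response in EAAE uteri was not excluded by these arrays. Without the EAAE saline 2 array the first of these was -0.47 (adjusted p = 0.0267), and without the EAAE E2 2 array the second was -0.76 (adjusted p = 0.0395). The intervals for Vegfa (-3.48 to -2.68) and Pgf (-5.67 to -4.16) lie further from 0. Their WT rises were also larger (2.99 and 5.31, against 0.92 for Nrp1), so this distance does not compare how much of each response was kept. Nrp2, with a WT rise of 0.77, had an interval of -0.98 to -0.24, which overlaps that of the brightest Nrp1 probe.

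**Figure D3:**
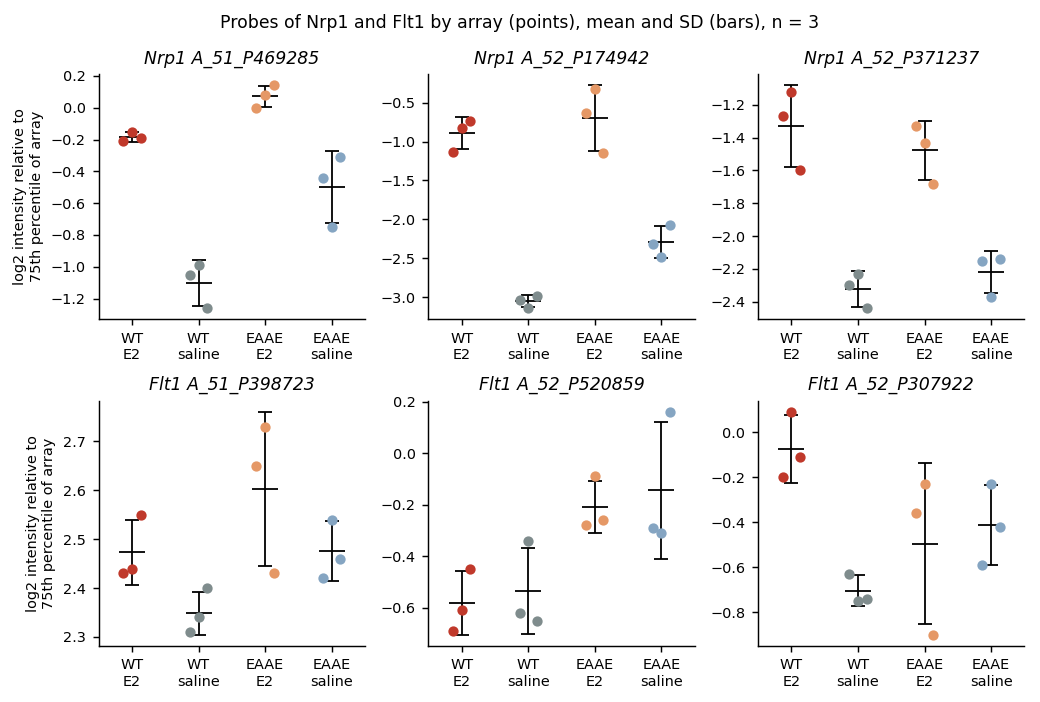
Log2 intensity relative to the 75th percentile of the array for the 3 tested probes of Nrp1 (top) and of Flt1 (bottom) in WT E2, WT saline, EAAE E2 and EAAE saline uteri, with a point per array and bars for mean and SD (n = 3). All 3 Nrp1 probes separate E2 from saline in both genotypes, whereas among the Flt1 probes A_52_P307922 alone was called after E2 in WT uteri.

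Under saline, 3 of the 9 genes differed by genotype: Flt4 and Nrp2 were lower and Nrp1 was higher in EAAE uteri, against 28.9% of all genes (14.3% higher, 14.6% lower) and 28% of all probes called. Flt4 stood at -3.06, -3.25 and -3.29 in EAAE saline uteri, against -2.03, -2.44 and -2.36 in WT saline uteri. The groups did not overlap, and Flt4 was 1.90-fold lower (-0.93, SE 0.15, adjusted p = 0.00153). Nrp2 was 1.46-fold lower (-0.55, SE 0.12, adjusted p = 0.00665), again with no overlap.

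Lymphatic markers were examined beside Flt4. Of 6 lymphatic endothelium markers tested, 4 were lower in EAAE saline uteri (Reln -0.92, Mmrn1 -0.88, Lyve1 -0.76 and Pdpn -0.62), and Prox1, the defining transcription factor, differed by -0.35 (adjusted p = 0.0783). The list had a median of -0.69, against 0.00 over all genes, and its summed linear level was 2.69 to 3.92 in EAAE saline uteri, against 5.11 to 6.31 in WT saline uteri. The count was 2 without WT saline 1, EAAE saline 2 or EAAE saline 3, and 1 with position in the fit. Vegfd, the other ligand of Flt4, was lower as well (-1.32, SE 0.15, adjusted p = 0.00019), while Vegfc was not called (-0.03, adjusted p = 0.889). After E2, 0 of the 6 markers were higher and 3 lower in EAAE uteri (median -0.43, against 0.11 over all genes), beside the Flt4 difference of -0.85. With E2 in WT uteri 1 was higher and 3 lower (median -0.47, against -0.15 over all genes), where Flt4 differed by 0.00. In that comparison array median scaling gave 2 higher. Across all genes, 14.3% were higher and 14.6% lower under saline, 33.4% and 24.4% after E2, and 19.5% and 29.6% with E2 in WT uteri. Of 20 blood endothelium markers, 1 was higher and 5 lower in EAAE uteri under saline (median -0.27), with 1 to 7 lower over all alternatives. After E2, 5 were higher and 4 lower (median 0.06), with 3 to 6 higher between scalings or with 1 array left out. Of 7 pericyte markers, 2 were higher and 1 lower under saline (0 to 3 and 0 to 2 with 1 array left out). After E2, 3 pericyte markers were higher and 2 lower. The part of lymphatic or blood endothelial cell number in the Flt4 difference was not tested.

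Nrp1 was 1.52-fold higher in EAAE saline uteri by its brightest probe (0.60, SE 0.12, adjusted p = 0.00396). The clone probe agreed in sign (0.76, adjusted p = 0.0158) but was no longer called when slide was a block (0.58, adjusted p = 0.135) or without the EAAE saline 3 array (0.65, adjusted p = 0.0634). The remaining Nrp1 probe, A_52_P371237, did not pass the test (0.10, adjusted p = 0.623), so the probes of Nrp1 differ on the genotype. Slide 1 was the only slide with both saline groups, 1 uterus of each. Within it the EAAE minus WT difference was 0.30 for the brightest Nrp1 probe, 0.54 for the clone probe and -0.07 for A_52_P371237. For Flt4 it was -1.22 and for Nrp2 -0.60.

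Vegfa under saline lay at the threshold. Its brightest probe was 1.07, 1.28 and 1.32 in EAAE saline uteri, against 1.52, 1.80 and 1.46 in WT saline uteri, lower on each EAAE array (-0.37, SE 0.13, adjusted p = 0.0532). It passed the test in 7 of 24 alternatives, among them without EAAE E2 2 (adjusted p = 0.0428) or EAAE E2 3 (adjusted p = 0.0408). The probe A_51_P482552 was called (-0.70, SE 0.12, adjusted p = 0.00208) and the probe A_52_P249424 was not (-0.38, adjusted p = 0.0766), though it was without the EAAE saline 2 array (-0.51, adjusted p = 0.0376). Pgf ran the other way without passing the test: it was -1.82, -1.76 and -1.92 in EAAE saline uteri, against -2.32, -2.48 and -2.16 in WT saline uteri (0.49, SE 0.24, adjusted p = 0.158). The Pgf groups did not overlap, and the test was passed without the EAAE E2 3 array (adjusted p = 0.0375).

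After E2, EAAE uteri differed from WT uteri in 6 of the 9 genes, against 57.7% of all genes (33.4% higher, 24.4% lower) and 57.6% of all probes. Vegfa was lower by 3.45 (SE 0.13, 11.0-fold, adjusted p = 2.3e-08) and Pgf by 4.43 (SE 0.24, 21.5-fold, adjusted p = 2.02e-07). Within slides 1, 2 and 3, each of which held 1 EAAE E2 and 1 WT E2 uterus, the Vegfa differences were -3.41, -3.19 and -3.77 and those of Pgf were -5.03, -4.28 and -3.96. Nrp2 (-1.16, adjusted p = 1.38e-05) and Flt4 (-0.85, adjusted p = 0.000721) were also lower in EAAE uteri. Vegfc (1.14, adjusted p = 3.1e-05) and Vegfb (0.72, adjusted p = 0.000686) were higher, and the Vegfb call ended with position on the slide in the fit (0.57, adjusted p = 0.0682). Beside these, 6 of 6 adipocyte markers (median 3.74) and 5 of 6 stroma markers (median 0.99) were higher in EAAE uteri, against a median of 0.11 over all genes. With position in the fit 1 adipocyte marker was called. Of the other marker lists, 4 of 7 epithelium markers were higher and 2 lower (median 0.73), and 3 of 5 smooth muscle markers were lower and 0 higher (median -0.41). Of 4 skeletal muscle markers, 3 were higher and 1 lower (median 1.83), with 0 to 3 higher over all alternatives. Their summed linear level was instead lower in EAAE E2 uteri (2.34 to 3.93) than in WT E2 uteri (5.37 to 6.37). Of 5 macrophage markers, 1 was higher and 0 lower. The macrophage count was 2 higher without WT saline 1 and 3 higher without EAAE E2 2, and 1 was lower without EAAE E2 1. The part of these cells in the ligand differences was not tested.

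The brightest Nrp1 probe after E2 was 0.07 ± 0.07 in EAAE uteri and -0.18 ± 0.03 in WT uteri (SD, n = 3 each), a difference of 0.25 that did not pass the test (interval -0.01 to 0.51, adjusted p = 0.0868), although the groups did not overlap. It was called without the EAAE saline 2 array (adjusted p = 0.0384). The other Nrp1 probes overlapped and had opposite signs, 0.19 for the clone probe A_52_P174942 (adjusted p = 0.431) and -0.15 for A_52_P371237 (adjusted p = 0.403). The clone probe was called without the EAAE E2 3 array (0.42, adjusted p = 0.0495). Kdr (-0.20, interval -0.55 to 0.15, adjusted p = 0.302) and the brightest Flt1 probe (0.13, adjusted p = 0.25) did not pass the test either, and Flt1 was called without the EAAE E2 3 array (0.22, adjusted p = 0.0446). The other Flt1 probes ran in opposite directions, 0.37 for A_52_P520859 (adjusted p = 0.0423) and -0.42 for A_52_P307922 (adjusted p = 0.0511). The first of these calls ended without any 1 of 7 arrays (adjusted p 0.0504 to 0.126): WT saline 1 and 3, WT E2 1 and 2, and EAAE E2 1, 2 and 3. The second passed the test in 9 alternatives, among them array median scaling (-0.52, adjusted p = 0.0237) and without EAAE E2 2 (-0.55, adjusted p = 0.0206). Under saline A_52_P520859 averaged -0.14 in EAAE uteri and -0.54 in WT uteri (0.39, adjusted p = 0.0608), and it was called without the WT saline 2 array (0.49, adjusted p = 0.044).

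**Figure D4:**
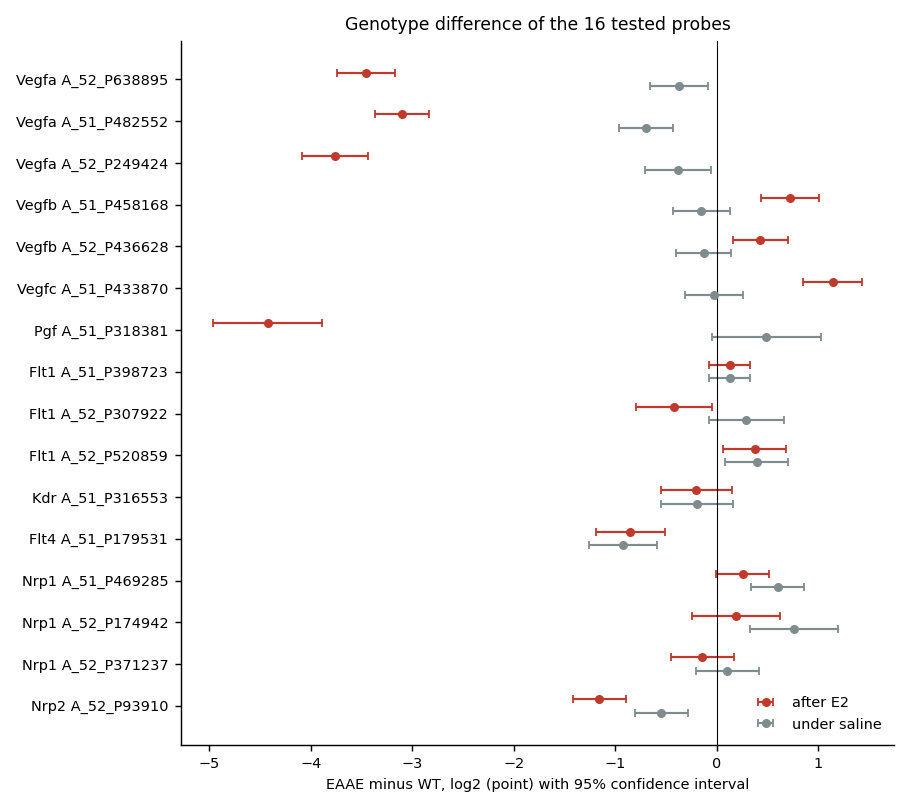
Points give the EAAE minus WT difference (log2) of each of the 16 tested probes after E2 (red) and under saline (grey), with 95% confidence intervals from the limma fit. The ligands separate the genotypes mainly after E2, with Vegfa and Pgf lower and Vegfb and Vegfc higher in EAAE uteri, while the Flt4 difference is about as large under saline (-0.93) as after E2 (-0.85).

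Order of levels over the 4 groups differed among the genes. For Vegfa and Pgf, WT E2 was highest, and the means of the other groups were 1.13 to 1.60 for Vegfa and -2.32 to -1.43 for Pgf. For Vegfc and Vegfb, WT E2 was lowest, and the other groups, whose arrays overlapped, had means of 1.51 to 1.60 for Vegfc and 3.56 to 3.79 for Vegfb. For the brightest Nrp1 probe the order was EAAE E2, WT E2, EAAE saline and WT saline, in which the first 2 did not pass the test against each other. For Flt4 the 2 WT groups shared the same mean (-2.27) above EAAE E2 (-3.12) and EAAE saline (-3.20).

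The genes whose pattern over the 12 arrays was most like that of a member, among 13679 genes well above background throughout, are given with Pearson's r as a description, since the arrays share the same 4 groups. For Vegfa these were Tlnrd1 (0.997), Rps6kl1 (0.997) and Rrp8 (0.996), and for Pgf they were Utp6 (0.992), Slc7a5 (0.992) and Srprb (0.992). Nrp1 was most like Slc30a4 (0.959), Hif1a (0.942) and Kif5c (0.927). Flt4 was most like Cilp (0.987), Prc1 (0.985) and Meox1 (0.982), and Nrp2 most like Snx5 (0.993), Snrpb (0.991) and Rab33a (0.988). Vegfc was most like the unnamed transcripts C130074G19Rik (0.989) and 4632415L05Rik (0.986) and Slc18b1 (0.983), and Vegfb most like Stxbp5 (0.971), Gmppa (0.971) and Trmu (0.968).

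Of 21 tested receptor partners and ligand modulators, 6 rose and 5 fell with E2 in WT uteri (median -0.05, against -0.15 over all genes). The number that fell was 3 with array median scaling, where the list's median was 0.08, and without WT saline 1 or 3 or WT E2 1 or 3. Ccn1, a matricellular integrin ligand, rose by 4.30 (SE 0.24, adjusted p = 4.76e-07), Adamts1, a protease that can sequester Vegfa, by 2.71 (SE 0.15, adjusted p = 5.32e-07) and the integrin Itgb3 by 1.96 (SE 0.20, adjusted p = 2.62e-05). Sema3c, a neuropilin ligand, fell by 1.08 (SE 0.12, adjusted p = 3.9e-05). In EAAE uteri 1 of the 21 rose, Adamts1 (1.19, SE 0.15, adjusted p = 0.00777), and 0 fell. Under saline, 3 were higher and 7 lower in EAAE uteri, led by Sema3e, the Plxnd1 ligand (2.92, SE 0.13, adjusted p = 5.78e-07), Ccn2 (1.59, adjusted p = 6.35e-05) and Itgb3 (-2.01, adjusted p = 7.39e-05). With slide as a block 4 were lower. Across all genes, 19.5% were higher and 29.6% lower with E2 in WT uteri, and 1.44% were called in EAAE uteri. For EAAE against WT uteri under saline, 14.3% of all genes were higher and 14.6% lower.

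Of 31 tested genes of VEGF receptor signal transduction, 11 rose and 4 fell in WT uteri (median 0.10, against -0.15 over all genes), where 19.5% of all genes were higher and 29.6% lower. In EAAE uteri 0 were called, where 1.44% of all genes were. The kinases Map2k1 (1.82, adjusted p = 6.91e-06), Mapkapk2 (1.58, adjusted p = 4.4e-06) and Akt1 (1.02, adjusted p = 1.31e-05) rose. After E2, 4 of the 31 were higher and 11 lower in EAAE than in WT uteri (median -0.15, against 0.11 over all genes), and 7 were higher with quantile normalization or with normexp background correction. Mapkapk2 (-1.60, adjusted p = 2.07e-06), Map2k1 (-1.71, adjusted p = 5.53e-06) and Akt1 (-1.01, adjusted p = 7.93e-06) were lower, and Pik3r1, a regulatory subunit of phosphoinositide kinase, was higher (2.23, adjusted p = 8.58e-07). Across all genes, 33.4% were higher and 24.4% lower in EAAE than in WT uteri after E2.

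Of 14 tested genes that VEGF raises in cultured endothelium, 9 rose and 2 fell with E2 in WT uteri (median 0.95, against -0.15 over all genes). Nr4a1 rose by 4.0 (SE 0.13, adjusted p = 2.48e-08), Egr3 by 4.23 (SE 0.36, adjusted p = 8.05e-06), Apln, a peptide of sprouting vessel tips, by 2.24 (SE 0.16, adjusted p = 2.9e-06) and Nr4a2 by 1.87 (SE 0.14, adjusted p = 2.66e-06). Nr4a1 and Egr3 are early response genes that many other stimuli also raise. In EAAE uteri 0 rose and 1 fell, Unc5b (-0.94, SE 0.18, adjusted p = 0.04), a call that ended with array median scaling and without any 1 array except WT saline 3 and EAAE E2 3. After E2, 11 of the 14 were lower in EAAE than in WT uteri and 0 were higher (median -1.13, against 0.11 over all genes). The number higher was 1 without EAAE E2 2 or EAAE E2 3, and without WT E2 2 the number that fell in WT uteri was 1. Across all genes, 19.5% were higher and 29.6% lower with E2 in WT uteri, and 1.44% were called in EAAE uteri. For EAAE against WT uteri after E2, 33.4% of all genes were higher and 24.4% lower.

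Of 20 hypoxia sensors, transcription factors of Vegfa and hypoxia-inducible genes, 7 rose and 4 fell with E2 in WT uteri (median 0.20, against -0.15 over all genes). Epas1 (1.73, adjusted p = 3.28e-06), Hif1a (0.95, adjusted p = 1.87e-05) and the vasodilator peptide Adm (2.66, adjusted p = 1.07e-06) rose and Ankrd37 fell (-1.95, adjusted p = 5.54e-07). Between scalings the number that rose was 7 to 9 and the number that fell 2 to 5, with 2 under array median scaling. Hif1a was the 1 gene of the 20 called in EAAE uteri after E2 (0.55, SE 0.09, adjusted p = 0.0255), a call that ended without EAAE saline 1, 2 or 3 or EAAE E2 2, and it was also higher in EAAE than in WT uteri under saline (0.74, adjusted p = 0.000299). Under saline 6 of the 20 were higher in EAAE uteri and 0 lower (median 0.22, against 0.00 over all genes), led by Slc2a1, a glucose transporter (1.15, adjusted p = 0.00023). The number higher was 3 without EAAE saline 3 and 2 with position in the fit, and the number lower was 2 without EAAE saline 2. After E2, 6 were higher and 6 lower in EAAE uteri, and with array median scaling 3 were higher. Across all genes, 19.5% were higher and 29.6% lower with E2 in WT uteri, and 1.44% were called in EAAE uteri. For EAAE against WT uteri, 14.3% of all genes were higher and 14.6% lower under saline, and 33.4% and 24.4% after E2.

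Endothelial markers were examined beside the receptors. Of 20 blood endothelium markers, 2 were higher and 7 lower after E2 in WT uteri (median -0.16, against -0.15 over all genes), and 4 were lower with array median scaling. Cldn5, a tight junction protein, fell by 1.49 (adjusted p = 7.49e-06) and Eng, a TGF-beta coreceptor, rose by 1.46 (adjusted p = 1.09e-05), while Cdh5, the endothelial cadherin, differed by -0.10 (adjusted p = 0.599). In EAAE uteri 1 rose, Sox17 (0.63, adjusted p = 0.0478), and 0 fell, and the Sox17 call ended without any 1 array except WT E2 3. The summed linear level of the 20 was 107 to 116 in WT E2 uteri, against 120 to 137 in WT saline uteri, and 140 to 144 in EAAE E2 uteri, against 108 to 123 in EAAE saline uteri. Of 7 pericyte markers, 1 was higher and 4 lower after E2 in WT uteri, and 0 were called in EAAE uteri. The 1 became 0 without WT saline 1 or 3, WT E2 1, 2 or 3, or EAAE saline 2. The 4 became 2 with array median scaling and without WT saline 3, WT E2 1 or WT E2 3, and without EAAE E2 3 the number lower in EAAE uteri was 2. The part of these cells in the differences of the receptors was not tested. Across all genes, 19.5% were higher and 29.6% lower with E2 in WT uteri, and 1.44% were called in EAAE uteri.

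**Figure D5:**
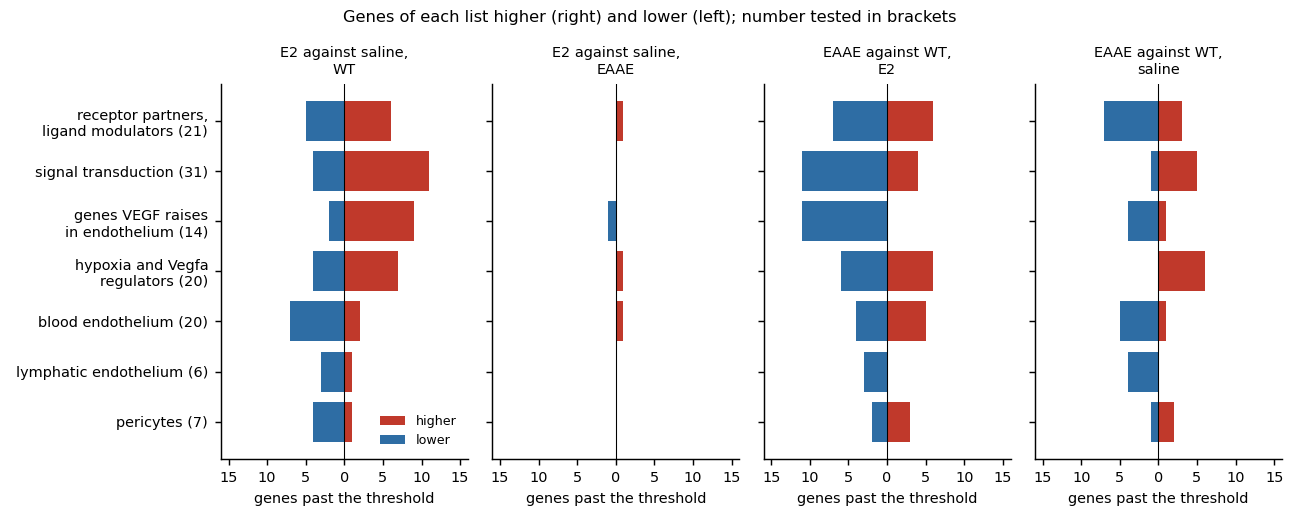
Horizontal bars give, for each list (number of genes tested in brackets), how many genes were higher (red, right) and lower (blue, left) at an adjusted p under 0.05, for E2 against saline in WT and in EAAE uteri and for EAAE against WT uteri after E2 and under saline. Genes that VEGF raises in endothelium were higher in 9 and lower in 2 of 14 after E2 in WT uteri, and at most 1 gene of any list shown was called in EAAE uteri. Across all genes, 19.5% were higher and 29.6% lower after E2 in WT uteri, and 1.44% were called in EAAE uteri.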

How the data were processed

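Uterine RNA of 12 mice was hybridised to 12 single-colour Agilent arrays, and the Cy3-labelled cRNA of each came from 500 ng of total RNA, per the labels' protocols. Per the file headers, spots were read out with Feature Extraction 9.5.3.1 of Agilent (the submitters' processing notes name 9.5), and the signal the authors deposited is an intensity on a linear scale, background-corrected and unscaled between arrays. The deposited value table held the same intensity on all 45018 spots, so its scale and direction are those of the scanner files, with no centring.

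Here control spots (1639 per array) were left out. Outlier spots were also left out, except where a probe had no other spot on the array. Then log2 was taken, the 75th percentile of the array was subtracted and spots sharing a probe were averaged. Tests covered the 29017 of 41174 probes that were well above background on every array of some group. Probe names came from the files' accessions and symbols, updated through RefSeq tables (GRCm38.p6). limma 3.58.1 (R 4.3.3; lmFit, eBayes, 2-sided, group means over 12 arrays, Benjamini-Hochberg over all probes, threshold 0.05) tested 5 comparisons. It was also run on simulated data with known changes, and that outcome is not reported here. Tables and plots used Python 3.11.15, pandas 2.3.3, numpy 2.4.6 and matplotlib 3.10.9. The replicates are separate mice, and their number limits the precision.

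Alternatives were normexp background correction (offset 50), array median and quantile scaling, other filters on dim probes, slide, position and replicate terms, 1 probe per gene, only the arrays compared, the value table, and each array left out. The text names every tested probe of the 9 genes, Esr1, up to 4 members with the smallest p of each pathway list, members of marker lists, and the 3 most alike genes of each member called at least once. A member of the signal transduction list that this rule names is not reported here. The 9 genes and the 16 lists were chosen with earlier results of these data known. Markers of epithelium, smooth muscle, macrophages, red cells, skeletal muscle, ovary and oviduct, and mesothelium were also counted. With E2 in WT uteri, higher and lower were 0 and 1 of 7 for epithelium, 0 and 0 of 5 for smooth muscle, 0 and 2 of 5 for macrophages, 0 and 0 of 2 for red cells, 0 and 1 of 4 for skeletal muscle, 0 and 2 of 3 for ovary and oviduct, and 1 and 0 of 3 for mesothelium. No counts underlie an array, so no counting error is given.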

Additional observations from a re-analysis of the deposited data

Results flagged for a closer look

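The response to E2 differed between EAAE and WT uteri, by the limma test of the difference itself, for 9 of the 16 tested probes. Across the series 36.4% of the 29017 tested probes were called in this comparison, and the 9 are given as values. The EAAE minus WT difference in the E2 response was -3.08, -2.40 and -3.38 for the Vegfa probes A_52_P638895, A_51_P482552 and A_52_P249424. It was -4.92 for Pgf and -0.61 for Nrp2. It was 0.87 and 0.56 for the Vegfb probes A_51_P458168 and A_52_P436628 and 1.17 for Vegfc. For Flt1 it was -0.71 at A_52_P307922 (adjusted p = 0.0377), a probe that disagrees with the other Flt1 probes. The calls of the second Vegfb probe and of the Flt1 probe each ended in 10 of 22 alternatives. That of Vegfb A_52_P436628 ended without WT saline 3, WT E2 2 or 3, EAAE saline 3 or EAAE E2 1 or 2 (adjusted p 0.0536 to 0.0639). That of Flt1 A_52_P307922 ended without WT saline 1, 2 or 3, WT E2 2 or 3, or EAAE saline 2 or 3 (adjusted p 0.055 to 0.0908).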

How the results depend on the processing

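Of 39 called results on single probes, 20 kept direction and call under all alternatives run, among them all Vegfa and Pgf results for E2 in WT uteri, for the response difference and for EAAE against WT after E2. In 909 repeats of the 39 called results, 822 kept the call, 86 lost it and 1 reversed. The reversal was the Nrp1 clone probe A_52_P174942 in EAAE against WT under saline, -0.19 with slide and position in the fit (adjusted p = 0.789). Of 960 repeats of the 41 results not called, 26 passed the test. The cause of these changes was not tested. The counts of each gene list under the same alternatives were added after seeing the data, and the moves of over 1.5 times that touch a printed count through scaling or a left-out array are given beside it.

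With slide and position in the fit, the genes of the 9 that fell with E2 in WT uteri numbered 1 (31.7% of all probes called). Under saline 0 were higher and 0 lower in EAAE uteri (1.68%), and after E2 0 were higher (26%). With position alone, after E2 1 was higher (36.8%), and 13.7% of probes were called under saline. With E2 in EAAE uteri the number of the 9 that rose was 0 with no filter (0.43% of probes called), slide (0.672%), position (0.0793%), slide and position (0.0138%), the replicate block (0.658%) and the arrays compared only (0.0276%). With no filter 22.2% of probes were called for the response difference and 17% under saline, where slide also gave 17%, and with the arrays compared only 2 of the 9 were higher under saline.

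Leaving out 1 array gave, for E2 in WT uteri, 4 to 4 genes higher, 2 to 2 lower and 38.7 to 50.8% of probes called. In EAAE uteri it gave 0 to 0 higher, 0 to 0 lower and 0.316 to 1.89%. For the response difference it gave 2 to 2 higher, 3 to 4 lower and 28.6 to 36.2%. Under saline it gave 1 to 2 higher, 2 to 3 lower and 19.1 to 30.1%, and after E2 it gave 2 to 3 higher, 4 to 4 lower and 49.9 to 57.4%.

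Array median scaling moved the median of all probes for E2 in WT uteri to 0.03, against -0.11 with the 75th percentile. The share of calls that were higher became 57.4%, against 43.4%, in WT uteri, 55.5%, against 41.3%, in EAAE uteri, and 43.3%, against 53.4%, for the response difference. Replicate numbers did not visibly pair the arrays: same-numbered arrays of different groups correlated at -0.24 to 0.21, over 0.1 in 4 of 12 pairs. Different-numbered arrays correlated at -0.32 to 0.32, over 0.1 in 7 of 24 pairs. The replicate block gave Nrp1 in EAAE uteri 0.57 (adjusted p = 0.0928). With 3 mice per group, the printed intervals give the range of differences that the arrays leave possible for each result.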
